A study of Rattus norvegicus with 16 samples.

Results

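The adrenal response to the lower of the doses of benzalkonium chloride (BKC) was measured in 4 of the 16 RNA-seq libraries of the series: 2 from rats given 50 µg BKC per instillation and 2 from rats given vehicle. All were wildtype male Sprague-Dawley rats, aged 7 weeks at the start after 1 week of acclimatization. Vehicle or BKC was instilled into the trachea 10 times, once every 3 days, and tissue was taken on day 31, 24 hours after the last instillation, so the vehicle group went through the same instillations without BKC. The paired adrenal glands were pooled, so each library holds cortex and medulla together. A further 2 adrenal libraries, from rats given 100 µg, entered the fit and are given beside the results where they bear on them. The other libraries, from heart and pancreas, were not used.

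BKC is a mixture of quaternary ammonium compounds used as a disinfectant and preservative. The adrenal cortex makes steroid hormones from cholesterol: the pituitary hormone ACTH binds the receptor MC2R, cyclic AMP rises, and StAR carries cholesterol into mitochondria, where CYP11A1 starts the pathway. The nuclear receptor NR5A1 (SF-1) drives most genes of that pathway, and cholesterol comes from uptake of lipoproteins and from synthesis under SREBP2. Chromaffin cells of the medulla make catecholamines. In tissue RNA, fewer cells of a type and less RNA per cell cannot be told apart.

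The values are FPKM, a read count scaled by transcript length and library size, for 45777 annotated genes, and the depth behind them is unknown. Cortical markers were high in all 4 libraries (Cyp11a1 4081 to 6227 FPKM, Star 2353 to 8123 FPKM), chromaffin markers were present (Chga 156 to 223 FPKM), and the kidney and muscle markers Umod and Ckm were listed at 0. The library of BKC replicate 1 stood apart: its FPKM summed to 1004889, against 689355 to 710106 in the other 3, and 26.0% of that sum was Rpph1, the RNA of ribonuclease P, against 8.69% to 12.5%. Rn7sl1, the RNA of the signal recognition particle, took 27.0% to 35.9%. Without these 2 RNAs the sums were 383102 to 420269, lowest in BKC replicate 1. Over all genes tested, BKC replicate 1 lay a median of 0.20 below the vehicle mean on the log2 scale, and BKC replicate 2 at 0.00. All 4 libraries share a naming style, and nothing in the labels assigns them to batches. The labels do not say beyond the group number that the libraries of a group come from separate animals, so p-values measure the spread between these libraries, which may be technical.

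**Figure D1:**
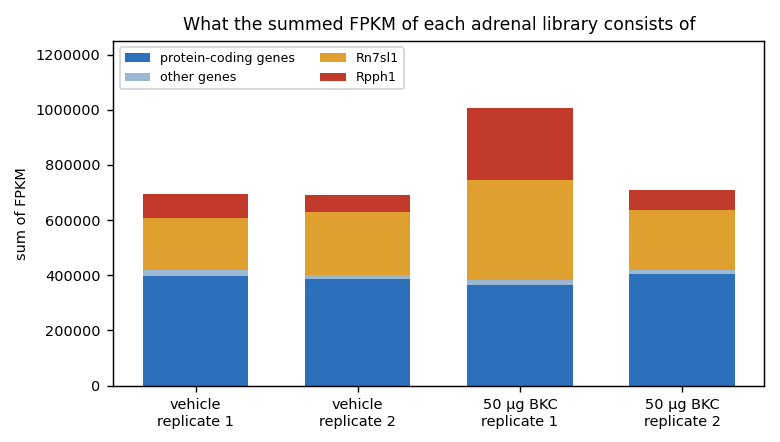
Summed FPKM of each adrenal library (axis in FPKM), divided into protein-coding genes, Rn7sl1, Rpph1 and other genes. The bar of BKC replicate 1 reaches 1004889 FPKM, and its excess is in the noncoding RNAs Rpph1 and Rn7sl1.

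Few genes passed a test across all genes. Testing was limited to genes averaging 1 FPKM or more across the 6 adrenal libraries, which left 12578 genes, and differences were taken as log2(FPKM + 1) with limma, which understates the change of low genes. In the fit of all 6 adrenal libraries, 4 genes passed at a Benjamini-Hochberg adjusted p under 0.05, which is 0.0318% of those tested. Cxcl10, Ubbl3 and the pseudogene LOC120096853 fell, and the small nuclear RNA LOC120093942 rose. At an unadjusted p under 0.05 there were 1424 genes (11.3%), of which 412 were higher and 1012 lower with BKC. The 2 libraries at 100 µg add to the spread in that fit. Replicate 2 of that group holds the same values as a heart library of the series in all 45777 genes, with Star at 6453 FPKM, within the range of the other adrenal libraries. Without it the fit called 169 genes, and without replicate 1 of that group 180. With the 4 vehicle and 50 µg libraries alone, limma called 184 genes, among them the 4 above: 75 were higher (0.596%) and 109 lower (0.867%), and 125 were protein-coding. For all 184 the BKC libraries lay on 1 side of both vehicle libraries. This larger count was fragile: it was 0 after median-ratio scaling of the libraries (smallest adjusted p 0.107), 32 without robust variances, and between 150 and 660 when 1 library was left out. Of the 184 genes, 47 passed in each of the 4 fits that leave out 1 library. Genes that passed only in the 4-library fit are given below as higher or lower with that p.

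Counted without a test, both BKC libraries lay above both vehicle libraries for 2078 genes (16.5%) and below both for 3726 genes (29.6%). After median-ratio scaling these counts were 3298 (26.2%) and 2885 (22.9%), so the share of higher genes among them went from 35.8% to 53.3%, and the median change over all genes went from -0.10 to 0.02. Past 2-fold, 170 genes were higher (1.35%) and 205 lower (1.63%). The vehicle libraries differed along the same line: vehicle replicate 2 exceeded vehicle replicate 1 in 72.9% of the higher genes and lay below it in 67.4% of the lower genes. Over all genes tested, vehicle replicate 2 exceeded vehicle replicate 1 in 47.7%. On the first principal component, which held 56.8% of the variance, the order was vehicle 1, vehicle 2, BKC 2 and BKC 1.

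**Figure D2:**
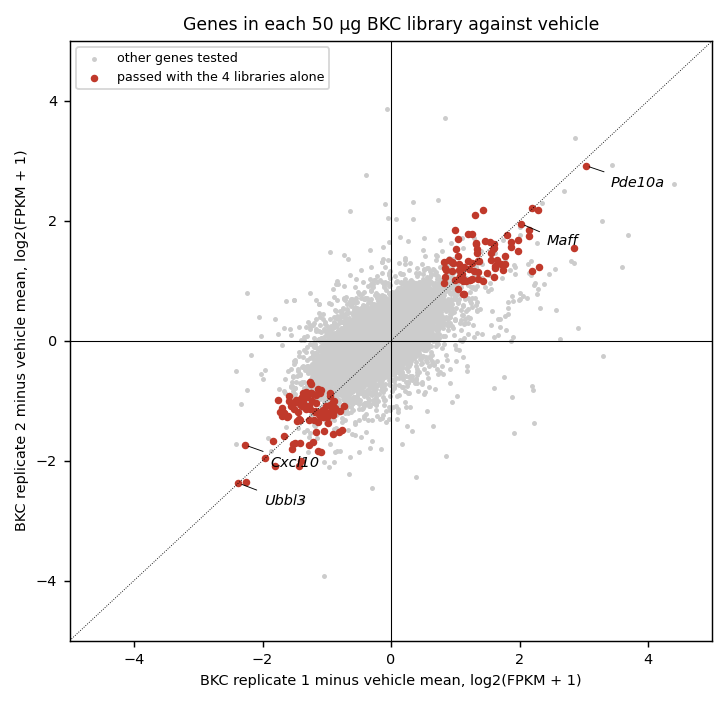
Log2 difference from the mean of the vehicle libraries for each of the 12578 genes tested, in BKC replicate 1 (x axis) and BKC replicate 2 (y axis), both on the log2(FPKM + 1) scale. Red points are the 184 genes that passed with the 4 libraries alone. They lie in the upper right and lower left corners, and the dotted line marks equal change in both libraries.

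Cxcl10, the chemokine that draws T cells through the receptor CXCR3 and a classic target of interferon, fell with 50 µg BKC. It measured 19.7 and 14.2 FPKM in the vehicle libraries and 2.66 and 4.31 FPKM in the BKC libraries. The groups did not overlap, and the log2 change was -2.01 (SE 0.29, limma adjusted p = 0.0462). It was -1.74 with BKC replicate 2 alone and -1.88 after median-ratio scaling, although the adjusted p then missed 0.05. Its promoter is shown because the next paragraph turns to other interferon targets. The 250 bases before and 50 after the RefSeq start (GRCr8, chr14:15988816-15989115, plus strand) are printed 5′ to 3′, with capitals for GAAANNGAA, the core of an interferon-stimulated response element, and for GGGANNTTC, an NF-kB type site.
Cxcl10: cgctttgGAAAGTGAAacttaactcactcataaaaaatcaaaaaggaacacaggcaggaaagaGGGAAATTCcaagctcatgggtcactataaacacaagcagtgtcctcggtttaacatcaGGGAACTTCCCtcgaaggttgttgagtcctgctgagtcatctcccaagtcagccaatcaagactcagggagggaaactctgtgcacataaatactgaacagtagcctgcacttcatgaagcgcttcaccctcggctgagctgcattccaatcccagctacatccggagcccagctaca
The first motif begins 243 bases before the start, and the second begins at 187 and 128 bases before it on the plus strand and at 126 on the minus strand, where the last pair overlap. Searched on both strands, GAAANNGAA was present in 9.71% and GGGANNTTC in 4.05% of the 33469 promoters in the table. A match of letters is a description and not a bound site.

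The interferon targets as a list split by library. Of 37 tested members, Cxcl10 among them, 0 were higher in both BKC libraries and 6 (16.2%) were lower in both. Of all genes, 16.5% were higher and 29.6% lower. The list's median was -0.38, but it was -0.89 with BKC replicate 1 alone and 0.20 with BKC replicate 2 alone, beside -0.20 and 0.00 for all genes. Of the 44 genes listed, tested or not, 35 had a promoter in the table, and 24 of these (68.6%) held GAAANNGAA in any of their promoters. The 9.71% given above counts each promoter singly, so it has a different base. Oas1b, an oligoadenylate synthetase family member, measured 8.08 and 6.83 FPKM with vehicle and 1.49 and 3.26 FPKM with BKC, and passed only in the 4-library fit (limma adjusted p = 0.0281, against 0.162 with 6). Ifi44l measured 33.8 and 23.9 against 10.2 and 20.8 FPKM, and Irf1, a transcription factor of the pathway, 48.3 and 39.5 against 20.1 and 37.0 FPKM. For all 3 the lower BKC value was that of replicate 1, and neither Ifi44l nor Irf1 passed.

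Of 15 inflammatory chemokines and cytokines tested, 1 passed as lower in the 4-library fit, beside 0.867% of all genes. In both BKC libraries 6 were lower and 1 was higher, beside 29.6% and 16.5% of all genes, with a median of -0.28 (-0.23 with BKC replicate 2 alone and -0.47 with BKC replicate 1 alone). Ccl2, which draws monocytes, measured 2.56 and 2.49 FPKM with vehicle and 0.595 and 0.375 FPKM with BKC (log2 change -1.25, SE 0.28, limma adjusted p = 0.138 with 6 libraries and 0.0362 with 4). Il1b, which encodes interleukin-1 beta, measured 2.11 and 5.07 against 0.855 and 1.5 FPKM and did not pass. Markers of macrophages did not move in step: of 16 tested, 2 were higher and 2 lower, with a median of 0.02. That median was -0.20 with BKC replicate 1 alone and 0.26 with BKC replicate 2 alone, beside -0.20 and 0.00 for all genes. Of 8 MHC class II genes none had both BKC libraries on 1 side of both vehicle libraries. Their median was -0.25 with BKC replicate 1 alone and 0.45 with BKC replicate 2 alone. The T cell and B cell markers Cd3e and Cd79a were listed at 0 in 3 of the 4 libraries each, at most at 0.20 FPKM. Whether immune cell number had a part in the Ccl2 values was not tested.

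Pde10a, a phosphodiesterase that breaks down cyclic AMP and cyclic GMP, had the largest log2 difference of the genes named by rule. It measured 0.908 and 3.79 FPKM with vehicle and 23.7 and 21.8 FPKM with BKC. Both BKC libraries were several-fold above the higher vehicle library (log2 change 2.97, SE 0.41), and the gene passed only in the 4-library fit (limma adjusted p = 0.0199, against 0.0784 with 6). With 0.1 added to the FPKM in place of 1, it did not pass in that fit (limma adjusted p = 0.194). The log2 change was 2.31 without vehicle replicate 1 and 3.64 without vehicle replicate 2. At 100 µg it measured 55.5 and 41.5 FPKM. Its promoter is printed because it holds TGACGT, the inner letters of the cyclic AMP response element, at 1 of the 2 RefSeq starts in the table (GRCr8, chr1:54765619-54765918, minus strand), here in capitals.
Pde10a: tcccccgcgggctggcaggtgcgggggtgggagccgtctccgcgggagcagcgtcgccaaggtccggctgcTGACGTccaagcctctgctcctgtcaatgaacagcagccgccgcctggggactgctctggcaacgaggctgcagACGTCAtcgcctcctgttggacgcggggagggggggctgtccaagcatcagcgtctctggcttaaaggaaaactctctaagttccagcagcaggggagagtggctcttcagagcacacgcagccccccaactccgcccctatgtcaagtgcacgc
The motif begins 179 bases before the start on the plus strand and 105 bases before it on the minus strand, and 7.94% of all promoters hold it. The phosphodiesterases as a list did not share its direction. Of 13 tested, Pde10a among them, 3 were higher and 3 lower in both BKC libraries, with a median of -0.18. Of all genes, 16.5% were higher and 29.6% lower. Pde7b, which is specific for cyclic AMP, measured 3.25 and 2.82 against 4.36 and 6.42 FPKM. Pde8b, a cyclic AMP phosphodiesterase of the cortex, measured 10.5 and 11.4 against 9.21 and 4.76 FPKM, and neither passed.

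Of 21 immediate early genes tested, Maff passed as higher in the 4-library fit, beside 0.596% of all genes. The list as a whole had a median of -0.29. In both BKC libraries 3 were higher and 3 lower (14.3% each), beside 16.5% and 29.6% of all genes. Maff, a small Maf transcription factor, measured 0.511 and 1.12 FPKM with vehicle and 6.29 and 5.90 FPKM with BKC (log2 change 1.99, limma adjusted p = 0.00283 with 4 libraries and 0.503 with 6). It passed in each of the 4 fits that leave out 1 library, and its values at 100 µg were wide apart, 18.7 and 2.56 FPKM. The Maff promoter (GRCr8, chr7:112792537-112792836, plus strand) is printed with the full palindrome TGACGTCA in capitals, which 1.83% of all promoters hold.
Maff: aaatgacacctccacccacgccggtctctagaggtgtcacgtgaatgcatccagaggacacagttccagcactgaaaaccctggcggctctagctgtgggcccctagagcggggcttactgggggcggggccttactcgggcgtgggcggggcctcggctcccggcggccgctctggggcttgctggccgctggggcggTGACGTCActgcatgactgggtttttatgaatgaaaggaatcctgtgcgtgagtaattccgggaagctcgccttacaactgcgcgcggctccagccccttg
The site begins 51 bases before the start. Of other genes searched for TGACGT, Nr5a1, Inha, Gadd45g, Oas1b, Hspb8 and Dhcr7 held 0 matches. Bag3 held 1, and Crem 6 over 3 promoters. The Pde10a and Maff promoters were printed because they hold the letters, so they do not show an element shared by the genes that differ. Crem, whose short form ICER represses cyclic AMP responses, measured 28.8 and 81.1 FPKM with vehicle and 193 and 157 FPKM with BKC. Its vehicle libraries alone differed more than 2-fold, and it did not pass with 4 libraries (limma adjusted p = 0.353). Nr4a3, an orphan nuclear receptor, measured 2.80 and 14.8 against 19.5 and 20.9 FPKM, and Fos went the other way, 12.8 and 44.4 against 7.00 and 12.6 FPKM. Crem, Nr4a3 and Fos were picked after their values were seen.

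**Figure D3:**
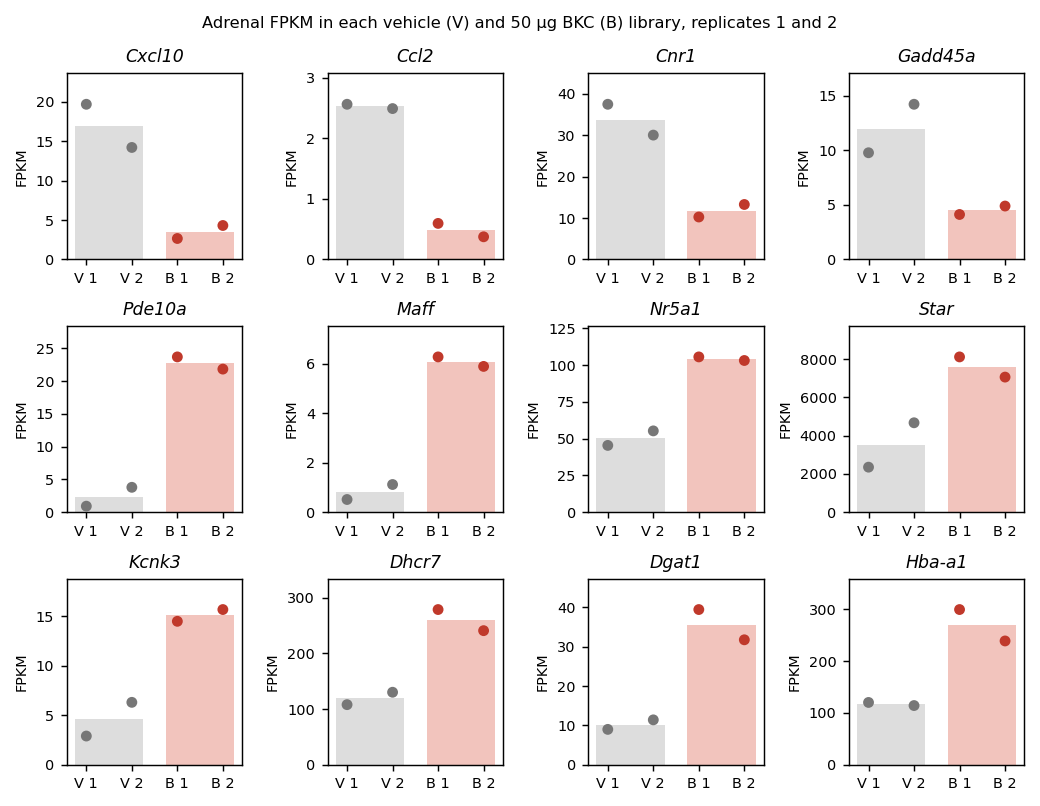
FPKM of 12 genes in each library, with vehicle (V) in grey and 50 µg BKC (B) in red. Points are libraries and bars are group means, with 2 libraries a group. In every panel the points of the 2 groups do not overlap.

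Of 24 steroidogenic genes tested, Nr5a1 and Lipe passed in the 4-library fit, both higher with BKC, beside 0.596% of all genes. In both BKC libraries 7 were higher (29.2%) and 4 lower (16.7%), beside 16.5% and 29.6% of all genes. The median was 0.09. Nr5a1 measured 45.4 and 55.3 FPKM with vehicle and 106 and 103 FPKM with BKC (log2 change 1.04, SE 0.20, limma adjusted p = 0.0823 with 6 libraries and 0.0204 with 4). Star measured 2353 and 4676 against 8123 and 7067 FPKM. The vehicle libraries of Star differed almost 2-fold, and it did not pass with 4 libraries (limma adjusted p = 0.0907). Fdx1, the ferredoxin that feeds electrons to CYP11A1, measured 1261 and 1809 against 2469 and 2165 FPKM, and Lipe, the hormone-sensitive lipase that frees stored cholesterol, 11.7 and 12.2 against 22.2 and 29.1 FPKM (limma adjusted p = 0.0357 with 4 libraries). Both BKC libraries lay above both vehicle libraries for each of these genes.

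Cyp11a1, the side-chain cleavage enzyme, measured 5610 and 5950 FPKM with vehicle and 6227 and 4081 FPKM with BKC. Hsd3b1, a 3-beta-hydroxysteroid dehydrogenase, measured 7245 and 7006 against 7183 and 8019 FPKM. Cyp21a1, the 21-hydroxylase, measured 1425 and 2202 against 2268 and 1841 FPKM. The groups overlapped for these 3 genes and for Cyp11b2, the aldosterone synthase, at 192 and 222 against 179 and 253 FPKM. Cyp11b1, which completes corticosterone, was lower in both BKC libraries at 2331 and 3337 against 2289 and 1362 FPKM, and did not pass (limma adjusted p = 0.298 with 4 libraries). Cyp11b1 has close copies, and how reads were divided between them is not known.

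Of the genes that control the cortex, Nr5a1 and Kcnk3 passed as higher and Cited2 as lower in the 4-library fit. Of all genes tested, 0.596% passed there as higher and 0.867% as lower. Mc2r, the ACTH receptor, measured 152 and 94.8 FPKM with vehicle and 79.3 and 75.6 FPKM with BKC (log2 change -0.63, limma adjusted p = 0.222 with 4 libraries). Agtr2, an angiotensin II receptor, measured 41.5 and 24.4 against 12.4 and 22.0 FPKM. Neither passed, although both BKC libraries lay below both vehicle libraries. Kcnk3, the potassium channel TASK-1 that holds the membrane potential of aldosterone-producing cells, measured 2.90 and 6.31 against 14.5 and 15.7 FPKM (log2 change 1.59, SE 0.30, limma adjusted p = 0.0146 with 4 libraries and 0.0823 with 6). Inha, the inhibin alpha subunit made in the cortex, measured 1.79 and 4.48 against 14.4 and 9.98 FPKM (limma adjusted p = 0.0243 with 4 libraries). Cited2, a transcriptional cofactor of adrenal development, was lower at 29.1 and 26.4 against 13.2 and 12.5 FPKM (limma adjusted p = 0.0281 with 4 libraries). In the list of ACTH and angiotensin control genes, 8 of 24 tested were higher (33.3%) and 5 lower (20.8%) in both BKC libraries. Of all genes, 16.5% were higher and 29.6% lower.

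Cholesterol synthesis and uptake had the highest median of the lists with at least 8 genes tested. Of 24 genes tested, 16 were higher and 1 was lower in both BKC libraries, beside 16.5% and 29.6% of all genes, and the median log2 change was 0.52 against -0.10 for all genes. The median was 0.64 with BKC replicate 1 alone and 0.35 with BKC replicate 2 alone. Dhcr7, the last enzyme of cholesterol synthesis, measured 108 and 130 FPKM with vehicle and 279 and 241 FPKM with BKC. It was the only member that passed in the 4-library fit (log2 change 1.12, SE 0.21, limma adjusted p = 0.0146, against 0.0823 with 6). Of all genes tested, 0.596% passed there as higher.

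Insig1, which holds SREBP in the endoplasmic reticulum and is itself its target, measured 57.7 and 86.0 FPKM with vehicle and 180 and 111 FPKM with BKC. Hmgcs1, the HMG-CoA synthase, measured 40.8 and 41.7 against 93.1 and 53.2 FPKM, and Mvd, the mevalonate decarboxylase, 3.13 and 3.95 against 14.9 and 6.09 FPKM. In these genes BKC replicate 1 was well above BKC replicate 2, which was itself above both vehicle libraries. Acat2, the cytosolic thiolase, measured 36.2 and 55.6 against 85.3 and 68.3 FPKM. Pmvk, the phosphomevalonate kinase, was the lower member, at 24.5 and 31.1 against 18.3 and 19.7 FPKM. Of the 25 genes listed, tested or not, 17 had a promoter in the table. Of these, 0 held the letters TCACNCCAC of a sterol regulatory element, which 1.12% of all promoters hold.

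**Figure D4:**
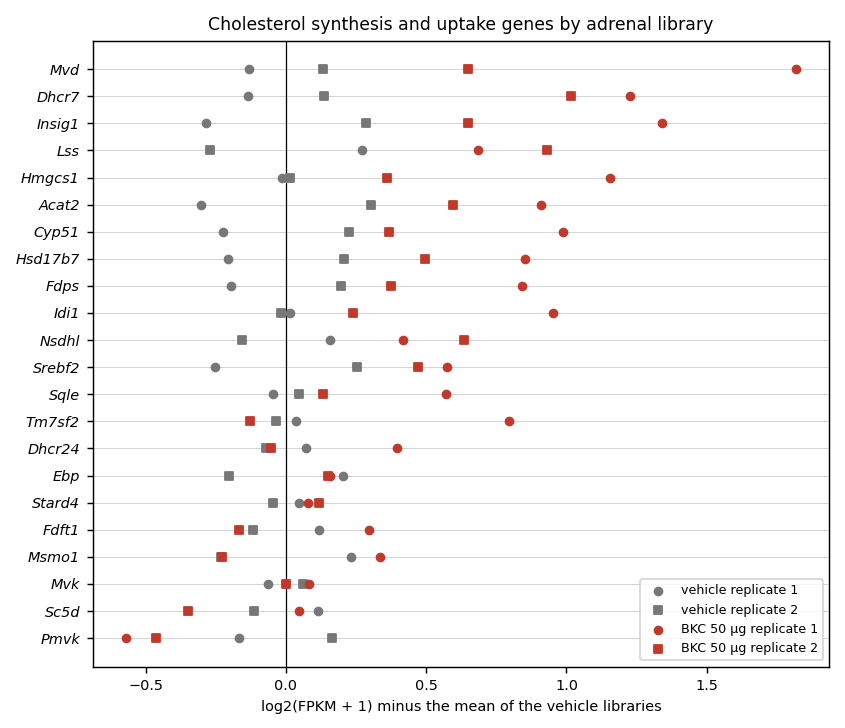
Difference from the vehicle mean on the log2(FPKM + 1) scale for 22 of the 24 tested genes of cholesterol synthesis and uptake, with a point per library. Red points lie to the right of both grey points in 14 of these 22 genes, and BKC replicate 1 (red circles) is mostly farther out than BKC replicate 2 (red squares).

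Genes of fatty acid and triglyceride synthesis included some of the larger differences. Dgat1, which makes triglycerides and other esters, measured 8.98 and 11.4 FPKM with vehicle and 39.4 and 31.7 FPKM with BKC (log2 change 1.71, limma adjusted p = 0.00231 with 4 libraries and 0.633 with 6, where its values at 100 µg were 169 and 25.4 FPKM). Elovl6, a fatty acid elongase, measured 1.15 and 2.40 against 11.3 and 5.08 FPKM (limma adjusted p = 0.0486 with 4 libraries). Fasn, the fatty acid synthase, measured 13.7 and 12.0 against 20.2 and 23.6 FPKM and did not pass, and Me1, the malic enzyme that supplies NADPH, was lower at 136 and 122 against 79.6 and 89.6 FPKM. Of 21 genes tested, 8 were higher (38.1%) and 2 lower (9.52%) in both BKC libraries, beside 16.5% and 29.6% of all genes. The median was 0.28.

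Of 27 genes of fatty acid oxidation and lipid droplets tested, 13 were lower and 1 was higher in both BKC libraries, beside 29.6% and 16.5% of all genes, with a median of -0.17 that became -0.04 after median-ratio scaling, when 8 were lower and 2 higher. Vnn1, a pantetheinase and a target of PPAR-alpha, measured 112 and 82.4 FPKM with vehicle and 55.1 and 42.1 FPKM with BKC (limma adjusted p = 0.0409 with 4 libraries). Plin2, the coat protein of lipid droplets, measured 233 and 287 against 148 and 144 FPKM (log2 change -0.82, SE 0.20, limma adjusted p = 0.0649 with 4 libraries). Adipocyte markers, which could come from fat around the gland, had a median of -0.20, with 0 of 18 higher and 3 lower in both. They split by library: the median was -0.51 with BKC replicate 1 alone and 0.12 with BKC replicate 2 alone. Their part in the lipid results was not tested.

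Alpha-globin RNA was higher with BKC. Hba-a1 measured 120 and 114 FPKM with vehicle and 299 and 239 FPKM with BKC (log2 change 1.18, SE 0.20, limma adjusted p = 0.0609 with 6 libraries and 0.00949 with 4). Hba-a2 measured 94.4 and 93.1 against 205 and 188 FPKM, and Hba-a3 21.8 and 17.1 against 43.0 and 34.1 FPKM (limma adjusted p = 0.016 and 0.0498 with 4 libraries). The alpha-globin genes are near-identical copies, so the division of reads between them is uncertain. The main beta-globin Hbb did not follow, at 386 and 245 against 360 and 356 FPKM. Of 11 erythroid genes tested, 6 were higher and 0 lower in both BKC libraries, beside 16.5% and 29.6% of all genes. At 100 µg Hba-a1 was at 90.2 and 108 FPKM, on the vehicle side.

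None of 21 medullary genes tested passed, with 6 libraries or with 4, and the largest differences were in Pnmt, Npy and Dbh. Pnmt, which turns noradrenaline into adrenaline, measured 33.0 and 71.0 FPKM with vehicle and 107 and 144 FPKM with BKC (log2 change 1.34, SE 0.47). Dbh, which makes noradrenaline, measured 47.9 and 52.1 against 80.8 and 93.2 FPKM, and Npy, a peptide stored with catecholamines, 6.16 and 5.48 against 11.6 and 13.8 FPKM. The groups did not overlap for these 3 genes, with limma adjusted p = 0.168, 0.0833 and 0.0535 with 4 libraries. Th, the rate-limiting tyrosine hydroxylase, measured 35.6 and 35.0 against 37.1 and 58.9 FPKM. Chga, the granule protein chromogranin A, overlapped at 169 and 160 against 156 and 223 FPKM. In the list, 6 were higher (28.6%) and 2 lower (9.52%) in both BKC libraries, beside 16.5% and 29.6% of all genes. The list's median was 0.29 with BKC replicate 2 alone and -0.11 with BKC replicate 1 alone.

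Of the heat shock genes, 1 passed as higher in the 4-library fit, beside 0.596% of all genes. Hspb8, a small heat shock protein, measured 16.0 and 23.5 FPKM with vehicle and 40.8 and 53.3 FPKM with BKC (log2 change 1.23, SE 0.24, limma adjusted p = 0.0823 with 6 libraries and 0.0169 with 4). Its partner in chaperone-assisted autophagy, Bag3, measured 1.77 and 4.34 against 8.28 and 7.87 FPKM (limma adjusted p = 0.0601 with 4 libraries). The inducible HSP70 genes Hspa1a (2.35 and 2.63 against 6.73 and 4.91 FPKM) and Hspa1b (2.29 and 3.44 against 8.41 and 5.92 FPKM) are near-identical copies, and neither passed. Hspd1, the mitochondrial HSP60, measured 2049 and 2068 against 1461 and 1415 FPKM (log2 change -0.52, limma adjusted p = 0.283 with 4 libraries). Of 23 heat shock genes tested, 10 were higher (43.5%) and 4 lower (17.4%) in both BKC libraries, beside 16.5% and 29.6% of all genes. The list's median was 0.13, which was 0.23 with BKC replicate 2 alone and -0.035 with BKC replicate 1 alone. Of the 24 genes listed, tested or not, 18 had a promoter in the table. Of these, 11 (61.1%) held GAANNTTC, a unit of the heat shock element, in any of their promoters. Counted promoter by promoter, 8.59% of all promoters hold it, which is a different base.

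Of 18 p53 targets and growth arrest genes tested, 2 passed as lower and 1 as higher in the 4-library fit, beside 0.867% and 0.596% of all genes. Gadd45a, induced by DNA damage, measured 9.78 and 14.2 FPKM with vehicle and 4.12 and 4.90 FPKM with BKC (log2 change -1.22, SE 0.28, limma adjusted p = 0.0281 with 4 libraries). Tp53inp1 measured 63.9 and 54.7 against 23.2 and 31.4 FPKM (limma adjusted p = 0.0208 with 4 libraries). Gadd45g, of the same family, went the other way at 33.5 and 52.2 against 114 and 192 FPKM (limma adjusted p = 0.0166 with 4 libraries and 0.533 with 6). In the list, 7 were lower and 2 higher in both BKC libraries, beside 29.6% and 16.5% of all genes, with a median of -0.33 against -0.10. That median was -0.27 with BKC replicate 2 alone. Ddit3, the transcription factor CHOP of the unfolded protein response, measured 34.4 and 33.9 against 13.7 and 20.8 FPKM (limma adjusted p = 0.0498 with 4 libraries), while that list as a whole held 5 higher and 5 lower of 26. Cdkn1c, a cyclin-dependent kinase inhibitor active in the cortex, measured 43.4 and 36.2 against 21.3 and 17.6 FPKM (limma adjusted p = 0.0357 with 4 libraries) and was picked after its values were seen, as were Gadd45g, Dgat1 and Cited2.

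None of 24 cell cycle genes tested passed, with 6 libraries or with 4. In both BKC libraries 7 were lower, near the 29.6% of all genes, and 0 were higher. The list's median was -0.28, which was -0.48 with BKC replicate 1 alone and -0.09 with BKC replicate 2 alone, beside -0.20 and 0.00 for all genes, and 0.00 without vehicle replicate 1. Tyms, the thymidylate synthase, measured 34.0 and 28.7 against 13.6 and 19.1 FPKM (limma adjusted p = 0.0652 with 4 libraries).

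The endocannabinoid receptor and the enzyme that makes its ligand anandamide were both lower. Cnr1, the receptor CB1, measured 37.5 and 30.02 FPKM with vehicle and 10.3 and 13.3 FPKM with BKC (log2 change -1.45, SE 0.24, limma adjusted p = 0.0609 with 6 libraries and 0.00454 with 4). It passed in each of the 4 fits that leave out 1 library, and at 100 µg it measured 9.33 and 11.4 FPKM. Napepld measured 3.09 and 3.83 against 0.726 and 1.11 FPKM (limma adjusted p = 0.0402 with 4 libraries). Of 9 genes tested, 4 were lower and 0 higher in both BKC libraries, beside 29.6% and 16.5% of all genes.

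Targets of the glucocorticoid receptor gave no common direction. Of 23 tested, 5 were higher and 6 lower in both BKC libraries. For each list of this paragraph the shares of all genes to set beside the counts are 16.5% and 29.6%. Fkbp5 measured 7.79 and 4.94 against 11.8 and 13.2 FPKM, and Tsc22d3, another target, 126 and 107 against 77.4 and 87.2 FPKM. Of 18 clock genes, 6 were higher and 4 lower, among them Per2 at 1.42 and 1.70 against 3.38 and 3.53 FPKM and Bmal1 at 24.3 and 34.2 against 20.7 and 22.2 FPKM. The NRF2 targets also divided, with 4 of 29 higher and 6 lower: Srxn1 measured 18.8 and 30.2 against 43.7 and 42.8 FPKM, and Hmox1 13.0 and 26.1 against 7.67 and 9.12 FPKM. Metallothioneins and zinc transporters stood at 4 higher and 5 lower of 18. Mt1 measured 174 and 150 against 208 and 255 FPKM, and Mt2A overlapped at 288 and 160 against 205 and 293 FPKM. None of the genes in these 4 lists passed, with 6 libraries or with 4.

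Among structural lists, collagen and matrix genes had 11 of 23 higher and 1 lower in both BKC libraries, beside 16.5% and 29.6% of all genes, and a median of 0.19. Col1a2 measured 9.93 and 11.8 against 17.4 and 14.4 FPKM, and the cross-linking enzyme Lox was the lower member, at 50.6 and 54.9 against 36.7 and 37.2 FPKM. Endothelial genes had 4 higher and 0 lower of 16. Oxidative phosphorylation genes had 3 higher and 11 lower of 40, which after scaling were 7 and 5. Smooth and skeletal muscle (6 tested) and neighbouring organs (3 tested) each had at most 1 gene on either side, and the glial list of 9 had 1 lower and 0 higher. None of the genes in these lists passed, with 6 libraries or with 4.

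**Figure D5:**
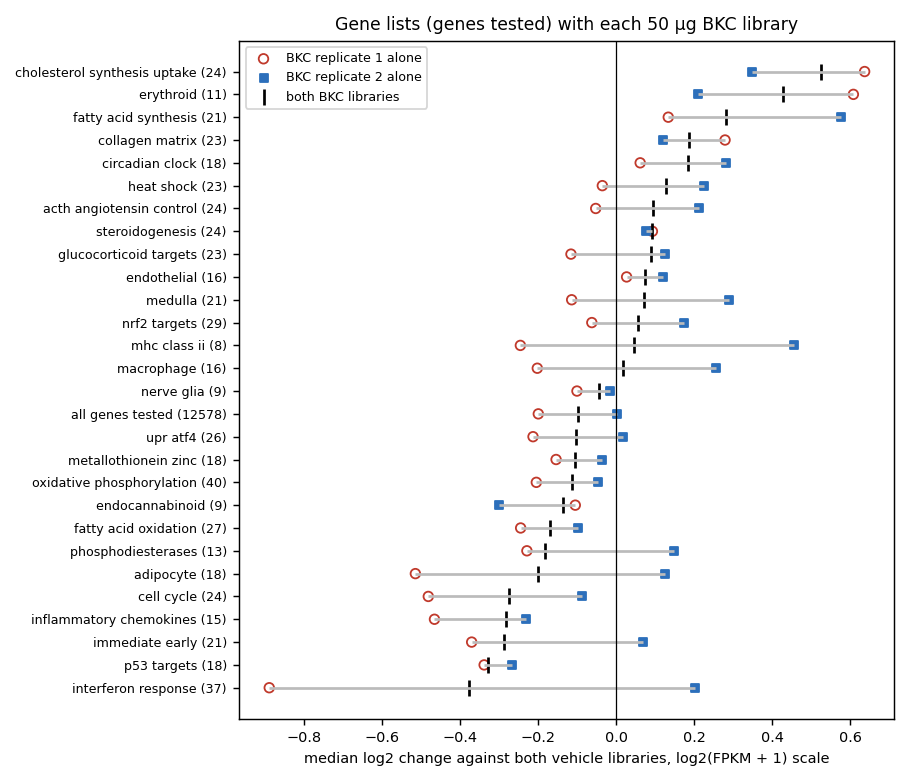
Median log2 change of each gene list with at least 8 genes tested, against both vehicle libraries, for BKC replicate 1 alone (open circles), BKC replicate 2 alone (squares) and both (ticks). The number of genes tested is in brackets. Cholesterol genes are to the right of 0 with either library, and the interferon list runs from -0.89 to 0.20.

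Ordered by size, the 15 largest differences in each direction were taken among protein-coding genes averaging 5 FPKM or more across the 4 libraries, with no overlap and an unadjusted p under 0.05. Of these 30 genes, 25 passed in the 4-library fit, 11 of the higher and 14 of the lower. Of all genes tested, 0.596% passed as higher and 0.867% as lower. The 30 were selected on the same libraries, so their passing is no separate evidence. Beside Pde10a, Inha, Kcnk3, Pnmt, Hspb8, Bag3 and Mvd, the higher genes were Tmem178a, Mapkapk2, Taf11, Fgfr2, Tp53inp2, Lrat, Adamts9 and Reep2. Mapkapk2, a kinase activated by p38, measured 17.1 and 21.0 FPKM with vehicle and 67.3 and 47.4 FPKM with BKC (log2 change 1.53, limma adjusted p = 0.0037 with 4 libraries). Lrat, which esterifies retinol, measured 24.2 and 22.9 against 61.7 and 60.8 FPKM (limma adjusted p = 0.00454 with 4 libraries), and Fgfr2, a receptor for fibroblast growth factors, 11.5 and 15.6 against 47.2 and 31.4 FPKM. Tmem178a, a transmembrane protein, measured 23.0 and 43.7 against 98.0 and 99.2 FPKM. All 4 passed in each fit that leaves out 1 of the 4 libraries. Adamts9, a secreted metalloprotease, measured 7.56 and 7.66 against 19.6 and 20.2 FPKM, and Taf11, a subunit of the general transcription factor TFIID, 7.65 and 8.10 against 19.4 and 29.6 FPKM. These 2 passed in each such fit as well, and their libraries at 100 µg were farther apart, at 59.1 and 19.6 FPKM for Adamts9 and 25.6 and 8.61 FPKM for Taf11.

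Beside Cxcl10, Cnr1 and Gadd45a, the lower genes were Adgrv1, Faim, Dipk2a, Uba6, B3galnt1, Ccdc8, Tuft1, Rab32, Ankrd10, Ccng2, Kank1 and Pctp. Adgrv1, a large adhesion receptor, measured 11.6 and 5.61 FPKM with vehicle and 1.55 and 1.85 FPKM with BKC (log2 change -1.76, limma adjusted p = 0.0103 with 4 libraries). Uba6, an enzyme that activates ubiquitin, measured 32.6 and 26.5 against 9.32 and 13.3 FPKM, and Faim, which inhibits Fas-induced apoptosis, 14.1 and 22.0 against 7.72 and 4.14 FPKM. Dipk2a measured 17.5 and 21.0 against 5.10 and 7.81 FPKM. Replicates were close together in B3galnt1, a glycosyltransferase of globoside synthesis, at 22.3 and 19.7 against 8.04 and 7.77 FPKM. Rab32, a small GTPase of lysosome-related organelles, measured 15.02 and 11.2 against 3.96 and 5.88 FPKM, and Pctp, which carries phosphatidylcholine, 9.92 and 11.8 against 3.86 and 4.55 FPKM. In each of these genes both BKC libraries were below both vehicle libraries. Il23r, the interleukin-23 receptor gene, picked after its values were seen, was nearly equal between replicates at 54.5 and 58.8 against 26.8 and 24.2 FPKM (log2 change -1.12, limma adjusted p = 0.0153 with 4 libraries and 0.0823 with 6).

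Of 74 small nuclear RNAs tested, 39 (52.7%) were higher and 8 (10.8%) lower in both BKC libraries, beside 16.5% and 29.6% of all genes. The median was 0.70, which was 0.92 with BKC replicate 1 alone and 0.54 with BKC replicate 2 alone. Only 74 of 1013 passed the filter on the mean of the 6 adrenal libraries. Some, such as LOC120093942, passed it only through their 50 µg values. The filter thus favours higher members, and these counts do not test a rise. LOC120093942 rose from 0.763 and 0.893 FPKM to 7.11 and 5.52 FPKM (log2 change 1.99, SE 0.29, limma adjusted p = 0.0462), and it was at 0.473 and 0.265 FPKM at 100 µg. Rnu1-136, a U1 gene, measured 1.38 and 1.56 against 7.99 and 6.68 FPKM (limma adjusted p = 0.0609 with 6 libraries). Such genes exist in many near-identical copies, so single members are uncertain. Rpph1 measured 86739 and 59896 FPKM with vehicle and 261355 and 71774 FPKM with BKC. It was high in BKC replicate 1 and between the vehicle values in BKC replicate 2, where the median of the small nuclear RNAs was the 0.54 given above. Small nucleolar RNAs did not follow, with 40 higher and 87 lower of 316. Of 367 long noncoding RNAs, 43 were higher and 151 lower.

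The other genes that passed with all 6 libraries are copies of other genes. Ubbl3, a ubiquitin-like gene, measured 3.99 and 4.39 FPKM with vehicle and was listed at 0 in both BKC libraries (limma adjusted p = 0.0175) and in both libraries at 100 µg. It met the filter on the mean of the 6 libraries only through its vehicle values. The filter thus favours a fall in such a gene, and the p does not allow for that. The pseudogene LOC120096853 fell from 3.42 and 4.26 FPKM to 0.378 and 0.134 FPKM (limma adjusted p = 0.0462), and at 100 µg it measured 3.31 and 3.17 FPKM. Reads of near-identical copies can be assigned to either, so both are uncertain.

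How far the comparison rests on BKC replicate 1 depends on the gene. Without it the 6-library fit called 1 gene, Igip, whose value was 9.70 FPKM in BKC replicate 2 and 0.193 in BKC replicate 1. Without BKC replicate 2 it called 32 genes, 14 of them small nuclear RNAs and 11 protein-coding. Of the 30 largest differences, 27 stayed past 2-fold with BKC replicate 2 alone and 30 with BKC replicate 1 alone. For 20 the difference was larger in BKC replicate 1. The 30 were selected for large differences without overlap in both libraries, so these counts do not test them. For 1656 of the 12578 genes tested the BKC libraries lay on opposite sides of both vehicle libraries, and in 1421 of these BKC replicate 1 was the lower. Over all genes tested, the median difference from vehicle was -0.20 in BKC replicate 1 and 0.00 in BKC replicate 2. These counts were not repeated after scaling.

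At 100 µg, compared with the same vehicle libraries and therefore not independent, several genes lay on the same side of vehicle. Cxcl10 measured 3.79 and 4.27 FPKM, Star 8811 and 6453 FPKM, and Kcnk3 20.4 and 24.2 FPKM. Nr5a1 lay between, at 73.4 and 63.4 FPKM. Mt1 did not follow, at 22.6 and 38.6 FPKM, against 150 FPKM or more in each of the 4 libraries here. The 100 µg libraries carry another naming style, so dose and library set cannot be told apart.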

How the data were processed

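RNA of adrenal glands was sequenced as stranded mRNA libraries, per the labels' protocols. HISAT2 2.1.0, StringTie 2.1.3b and edgeR 3.40.2 are named in the submitters' processing notes, without roles, and the genome build is not given in the sources used here. The deposited values were taken as FPKM made by the authors, inferred from their size and steps. Whole reads could not be recovered, so the depth is unknown and no count test was run. All 45777 symbols matched the RefSeq gene table (GRCr8), which gave gene classes, and 71 repeated symbols of transfer RNA genes were kept as separate entries.

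Differences were tested with limma 3.58.1 (R 4.3.3) on log2(FPKM + 1), with trended and robust variances, over the 3 adrenal groups of 2 libraries, limited to genes averaging 1 FPKM or more, with Benjamini-Hochberg adjustment over 12578 genes. The procedure was tested on simulated data. An exact permutation test of 2 against 2 libraries cannot go below p = 0.333 and was not used. Named genes are those called, the 15 largest differences in each direction, the 5 members of each of 31 lists with the smallest p, and genes fixed by name, and others are marked as picked after their values were seen: Crem, Nr4a3, Fos, Gadd45g, Cited2, Pmvk, Dgat1, Fasn, Hbb, Chga, Il23r, Cdkn1c, Rnu1-136 and Igip. Members and lists were chosen with earlier results of these data known. Promoters are from RefSeq (GRCr8) and those of Star, Kcnk3 and Cnr1 were not used here. Some genes of the lists are counted but not reported by name here. In the heart table, 1 library at 100 µg held the same values as adrenal 100 µg replicate 2 in all 45777 genes. The alternatives tried are given at the end.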

Additional observations from a re-analysis of the deposited data

How the results depend on the processing

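The count of genes called in the fit of all 6 adrenal libraries (4) became 0 with a pseudocount of 0.1, with a minimum mean of 5 FPKM, with median-ratio scaling, with quantile normalization, with protein-coding genes set to equal sums and without robust variances. It was 19 with no filter, 184 with only the 4 libraries, 0 with the replicate block, 8 with the crossed pairing of replicate numbers and 0 with scaling and BKC replicate 1 left out together. A required fold of 2 left it at 4. Leaving out 1 library gave 1 to 180 genes: 11 without vehicle replicate 1, 121 without vehicle replicate 2, 1 without BKC replicate 1, 32 without BKC replicate 2, and 180 and 169 without replicates 1 and 2 of the 100 µg group. The labels do not say that a replicate number marks a shared batch. The deviations of same-numbered vehicle and BKC libraries correlated at -0.15. Each group gives only 1 replicate difference, so this cannot show whether the numbers pair the samples.

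With the 4 libraries alone (184 genes), a pseudocount of 0.1 gave 156, median-ratio scaling 0, ordinary variances 32, the replicate block 147 and the crossed pairing 97. Leaving out 1 library gave 150 to 660, with 184 without vehicle replicate 1, 660 without vehicle replicate 2, 150 without BKC replicate 1 and 358 without BKC replicate 2, where the lone library of a group is assumed to vary like the other group. The cause was not tested. Genes higher in both BKC libraries numbered 3298 after median-ratio scaling, and 2721 to 4557 with 1 library left out, the highest without BKC replicate 1 and 3818 without vehicle replicate 2. Genes lower in both numbered 4378 to 7136, the highest without BKC replicate 2 and 5795 without vehicle replicate 2. These counts over fewer libraries grow because fewer values must line up. The alternatives for the 4-library fit and for counts without overlap, and the crossed pairing, were chosen after seeing the data.

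Directions reversed for 9 genes. Hsd3b1 was at -0.11 with quantile normalization. With 1 library left out, Cyp11a1 ranged from -0.50 to 0.11, Cyp21a1 from -0.11 to 0.52, Cyp11b2 from -0.20 to 0.29, Hbb from -0.11 to 0.54, Chga from -0.079 to 0.44, Mt2A from -0.23 to 0.61, Rpph1 from -0.0061 to 1.86 and Igip from -0.40 to 2.77. Rpph1 was at -0.0026 with scaling and BKC replicate 1 left out together. Depth is unknown, so no limit of detection can be given.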
